A study of Mus musculus with 6 samples.

Results

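The alpha-actinins Actn2 and Actn3, the myozenins Myoz1, Myoz2 and Myoz3, and their Z-disc partners Myot, Tcap, Ldb3 and Pdlim3 were described in mouse quadriceps with and without Klf15, a zinc-finger transcription factor. The 9 genes were taken by symbol from a table of 23314 genes, with 1 row for each, and all 9 had a mean of at least 1 FPKM (an expression level corrected for the length of the transcript and the size of the library). They were chosen by their known roles together with the difference in FPKM between the groups, which had already been seen in these libraries for Actn2 and Myoz2. Their values are therefore a description, with no test. RNA sequencing was made from total RNA of the quadriceps, a thigh muscle made mostly of fast fibres in mice, taken from animals aged 2 months. The control group, MyoCre, had the genotype Myogenin-Cre/+, with Cre recombinase driven by the gene of a transcription factor of differentiating muscle. The knockout group, K15SKO, had the genotype Myogenin-Cre/+;K15F/F, so that both groups carried the same Cre and K15SKO also carried the floxed Klf15 alleles. Each group held 3 libraries, and the design text speaks of n = 4. Nothing in the labels ties each library to an animal of its own, so a p-value here reflects the spread between these samples, which may be technical.

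The Z disc is the protein lattice at the border of each sarcomere, where alpha-actinin crosslinks the thin filaments of neighbouring sarcomeres. Actn3 is the alpha-actinin of fast glycolytic fibres, whereas Actn2 is made in all skeletal fibres and in the heart. Myozenins, also called calsarcins, bind alpha-actinin and the phosphatase calcineurin. Myoz1 and Myoz3 are the forms of fast fibres, and Myoz2 is the form of slow fibres and the heart. Myotilin (Myot), telethonin (Tcap), the PDZ-LIM protein Ldb3 and the PDZ-LIM protein Pdlim3 bind alpha-actinin, titin or filamin at the same structure.

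Actn2 and Myoz2 were each higher in all 3 K15SKO libraries than in any MyoCre library, at 3.01 and 3.94 times the MyoCre mean. Their fast-fibre counterparts Actn3 and Myoz1 were lower in K15SKO 1 and K15SKO 2 and at the MyoCre level in K15SKO 3. The ratio of Actn2 to Actn3 and that of Myoz2 to Myoz1 were higher in every K15SKO library than in every MyoCre library. Myot was moderately higher in all 3 K15SKO libraries, and Pdlim3 was more than doubled in K15SKO 1 and K15SKO 2 alone. In a bulk tissue, fewer fibres of a type and less RNA per fibre cannot be told apart.

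The Klf15 transcript measured 35.2, 28.4 and 30.5 FPKM in the MyoCre libraries, in order of number. Those of K15SKO read 2.22, 21.7 and 5.32 FPKM, with K15SKO 2 the highest. Depth relative to MyoCre 1, read from the steps between low values, ran from 0.779 to 1.57, and the absolute depth is unknown. Pearson correlations of log2 values over the tested genes were read between libraries. K15SKO 3 stood closer to the MyoCre libraries (0.968 to 0.975) than to K15SKO 1 (0.942) and K15SKO 2 (0.880). K15SKO 2 had the lowest correlations, at 0.870 to 0.880 with MyoCre and 0.915 with K15SKO 1. K15SKO 1 stood at 0.928 to 0.936 with MyoCre, above its value with K15SKO 2. All 10 skeletal fibre markers in the table were expressed, summing to 29540 to 47172 FPKM. The hepatocyte list of 10 genes summed to 5497 FPKM in K15SKO 2. The sums were 70.3 and 17.8 FPKM in K15SKO 1 and K15SKO 3 and 27.8 to 69.0 FPKM in MyoCre. Most of each MyoCre sum was Cyp2e1, at 26.7 to 68.2 FPKM, which read 4.95 and 6.35 FPKM in K15SKO 1 and K15SKO 3. The other genes of the list were higher in every K15SKO library than in any MyoCre library. Alb read 21.1, 2203 and 4.36 FPKM in K15SKO 1 to 3 against at most 1.13 FPKM in MyoCre. The macrophage list of 8 genes reached 338, 189 and 38.6 FPKM in K15SKO, by library number, against 42.1 to 50.8 FPKM in MyoCre. The 5 genes of regenerating or embryonic muscle summed to 65.5, 51.8 and 14.8 FPKM in K15SKO 1 to 3 and to 9.58 to 20.8 FPKM in MyoCre. Most of each MyoCre sum was Myod1, at 6.75 to 17.7 FPKM, which read 11.9, 7.12 and 9.35 FPKM in K15SKO 1 to 3. Myh3, Myh8, Myog and Chrng were higher in every K15SKO library than in any MyoCre library. Myog, for 1, read 31.9, 27.3 and 3.90 FPKM against at most 2.36 FPKM. The part of these markers in the Klf15 values and in the results that follow was not tested.

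Promoter sequence was at hand for 4 of the 9 genes, from RefSeq on GRCm38.p6. The windows of Actn2, Myoz2 and Pdlim3 are shown because, of the 9 genes, these 3 had the largest log2 differences between the groups. Each runs 5′ to 3′ on the gene's strand from 250 to 31 bases before the RefSeq start. Capitals mark every match, on either strand, to any of 3 motifs. These were CACCC (the box bound by Krüppel-like factors), a loose MEF2 pattern and CAGCTG (an E-box of the MyoD family). The loose MEF2 pattern was CTA and TAG with any 4 bases between, so it is wider than the MEF2 site itself.
Actn2, chr13:12340763-12340982, minus strand: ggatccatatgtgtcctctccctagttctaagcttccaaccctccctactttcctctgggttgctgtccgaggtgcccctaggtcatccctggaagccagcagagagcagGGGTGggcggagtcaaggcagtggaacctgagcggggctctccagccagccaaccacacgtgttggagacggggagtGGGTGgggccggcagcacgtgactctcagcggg
Myoz2, chr3:123035018-123035237, minus strand: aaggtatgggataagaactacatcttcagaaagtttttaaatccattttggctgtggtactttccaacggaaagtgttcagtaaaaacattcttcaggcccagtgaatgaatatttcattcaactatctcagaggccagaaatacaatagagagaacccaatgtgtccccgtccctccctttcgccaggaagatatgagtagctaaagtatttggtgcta
Pdlim3, chr8:45885237-45885456, plus strand: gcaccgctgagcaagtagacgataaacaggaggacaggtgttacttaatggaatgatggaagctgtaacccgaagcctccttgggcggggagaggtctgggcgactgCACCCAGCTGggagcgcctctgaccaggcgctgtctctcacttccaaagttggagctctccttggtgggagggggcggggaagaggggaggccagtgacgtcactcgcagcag
The Actn2 window held 2 matches to CACCC, both as its reverse complement GGGTG, and none to the other motifs. The Pdlim3 window held 1 match to CACCC, which overlaps its 1 match to CAGCTG by a single base. The Myoz2 window, with 40% G and C against 62.7% in Actn2 and 60.5% in Pdlim3, held 0 matches to any of the 3 motifs. Ldb3, with a log2 difference of −0.14, had 2 overlapping windows, not shown. Both held the same 3 matches to CACCC, and 1 of them also held 1 match to the loose MEF2 pattern. Of 32851 promoter windows of the same length, 47.8% held CACCC, 2.83% held the loose MEF2 pattern and 11.4% held CAGCTG. A match is a stretch of letters and not a bound site.

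Ordered by level per transcript length in MyoCre, Actn3 and Tcap came highest, followed by Myoz1, Ldb3, Myot, Pdlim3, Actn2, Myoz3 and Myoz2. The 3 MyoCre libraries of neighbouring genes in this order did not overlap for 7 of 8 pairs, the exception being Actn3 and Tcap. By MyoCre mean, Actn3 ranked 7 of the 23314 genes and Myoz2 ranked 1927. These ranks cover only genes with a row, and the fast-fibre genes Myh4, Tnnt3 and Atp2a1 had none under those symbols. In K15SKO the order became Tcap, Actn3, Myoz1, Pdlim3, Ldb3, Myot, Actn2, Myoz2 and Myoz3, and neighbours did not overlap for 3 of 8 pairs. Myoz2 had passed Myoz3 in mean, although the libraries of this pair overlapped. Actn2 moved from rank 344 to rank 91 and Myoz2 from rank 1927 to rank 523. Of the 9 genes, 3 (Actn2, Myoz2 and Myot) were higher in all 3 K15SKO libraries than in any MyoCre library, and 0 were lower in all 3. Over all 11607 genes tested, 13.4% were higher in this way and 11.3% lower. The median log2 difference of the 9 genes was 0.12, against −0.015 over all tested genes.

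**Figure D1:**
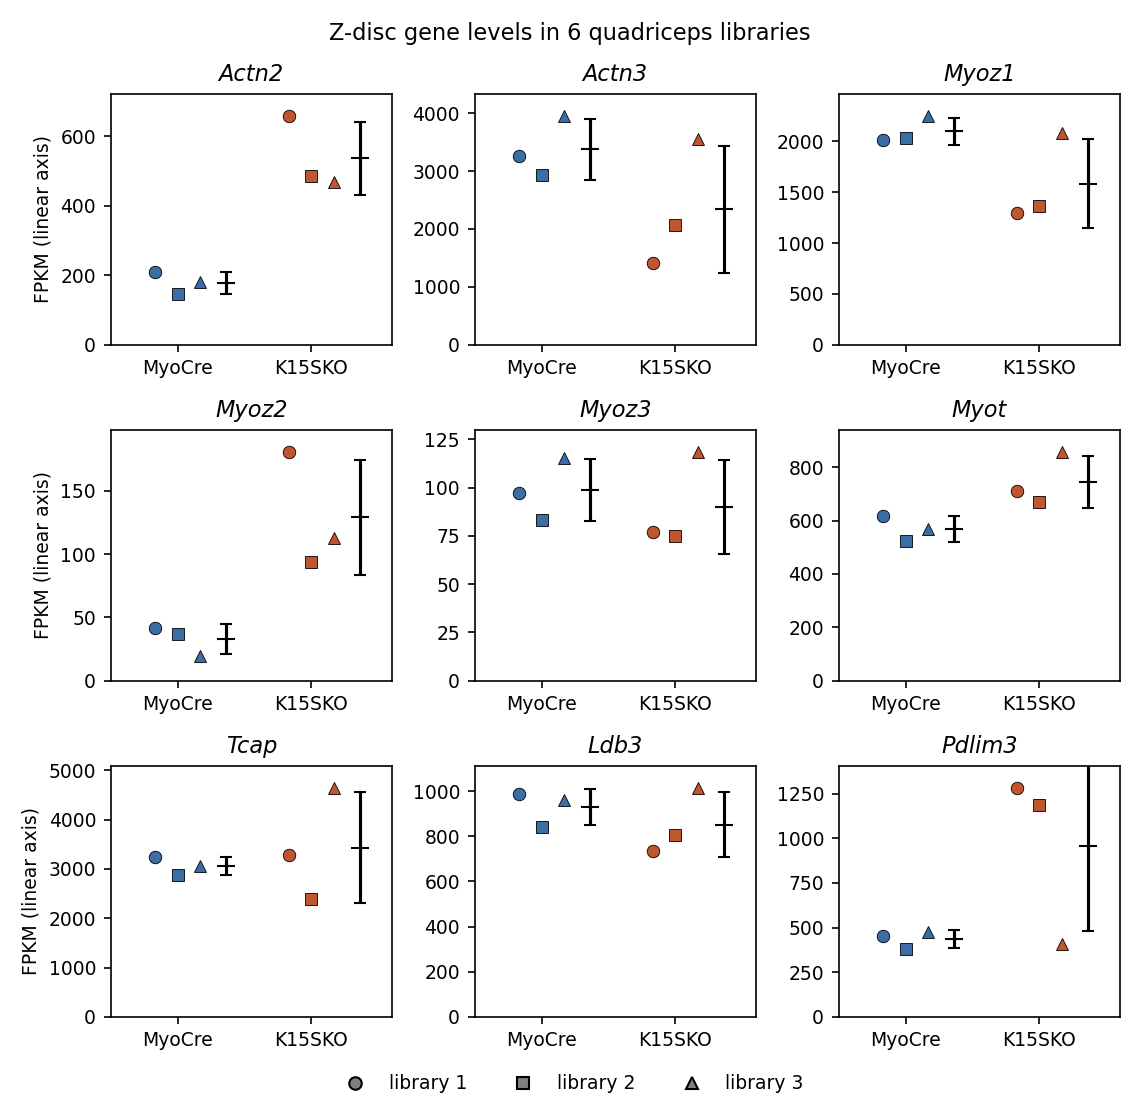
FPKM (vertical axes, linear, from 0) of the 9 genes in the 3 MyoCre libraries (blue) and the 3 K15SKO libraries (red); symbols give the library number, and the bars give mean and SD. The 2 groups are apart for Actn2, Myoz2 and Myot, and K15SKO 3 lies with MyoCre for Actn3, Myoz1 and Pdlim3.

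Actn2, on chromosome 13 from 12269426 to 12340760 (minus strand, GRCm38), measured 209, 146 and 179.9 FPKM in the MyoCre libraries, in order of number. The K15SKO libraries held 657, 485 and 467 FPKM. The groups did not overlap, and K15SKO 1 was highest. The means were 536 ± 105 FPKM in K15SKO and 178 ± 31.6 FPKM in MyoCre (SD, n = 3 each). On the log2(FPKM + 1) scale the difference was 1.58 (SE 0.20).

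Actn3, on chromosome 19 from 4861216 to 4877909 (minus strand), read 3255, 2925 and 3947 FPKM across MyoCre 1 to 3. Across K15SKO, the values were 1404, 2063 and 3553 FPKM. The groups overlapped, because K15SKO 3 lay inside the MyoCre range while the other K15SKO libraries lay below it. The log2 difference was −0.62 (SE 0.34), and it was −0.98 without K15SKO 3 and −0.31 without K15SKO 1. The coefficient of variation of Actn3 was 47.1% in K15SKO and 15.4% in MyoCre.

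The Actn2 to Actn3 balance was therefore taken within each library, where a scaling factor common to all genes cancels. There were 15.6, 20.1 and 21.9 FPKM of Actn3 for each FPKM of Actn2 in MyoCre 1 to 3. The K15SKO libraries held 2.14, 4.25 and 7.61. As a share of the sum of both genes, Actn2 made up 6.03%, 4.74% and 4.36% in MyoCre 1 to 3. The shares in K15SKO 1 to 3 were 31.9%, 19.0% and 11.6%. All 3 K15SKO libraries lay above the MyoCre range, and they spread more widely than the MyoCre libraries. The mean log2 ratio of Actn2 to Actn3 was −2.04 ± 0.92 in K15SKO and −4.25 ± 0.26 in MyoCre (SD, n = 3 each), a difference of 2.21. Actn3 remained the more abundant transcript in all 6 libraries. In K15SKO 3 the shift of 1.32 above the MyoCre mean came with Actn2 at 2.62 times and Actn3 at 1.05 times the MyoCre mean. In K15SKO 1, by contrast, the shift of 3.15 came with Actn2 at 3.69 times and Actn3 at 0.416 times the MyoCre mean. How the authors assigned reads that fit both paralogs is not stated in the labels or notes used.

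**Figure D2:**
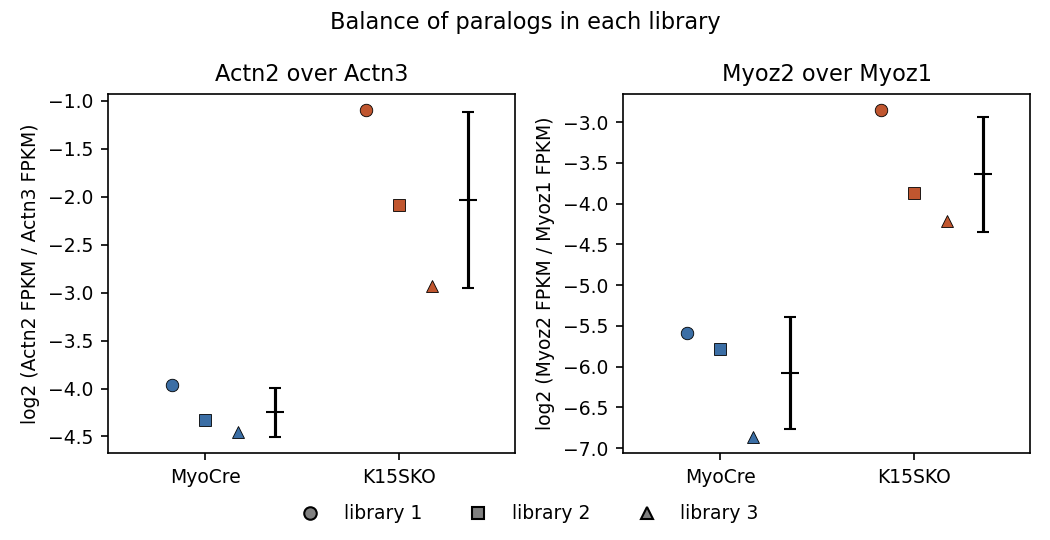
The log2 ratio of Actn2 to Actn3 FPKM (left) and of Myoz2 to Myoz1 FPKM (right) in each library, with mean and SD as bars; the vertical axes do not start at 0. All 3 K15SKO libraries lie above all 3 MyoCre libraries in both panels, with mean differences of 2.21 and 2.43.

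Myoz2, on chromosome 3 from 123006206 to 123035015 (minus strand), was at 42.0, 37.0 and 19.3 FPKM in MyoCre, by library number. Its K15SKO values were 180.2, 93.7 and 113 FPKM. The groups did not overlap, with MyoCre 3 the lowest of all and K15SKO 1 the highest. The means were 129 ± 45.4 FPKM in K15SKO and 32.8 ± 11.9 FPKM in MyoCre (SD, n = 3 each), and the log2 difference was 1.96 (SE 0.36). A microRNA gene, Gm22066, lies inside Myoz2 on the same strand in GENCODE M21, and no annotated gene overlaps the other 8.

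Myoz1, on chromosome 14 from 20649107 to 20656540 (minus strand), read 2014, 2033 and 2247 FPKM across the controls. The 3 knockout libraries were at 1300.1, 1366 and 2087 FPKM. As with Actn3, K15SKO 1 and K15SKO 2 were below the MyoCre range and K15SKO 3 was inside it. The log2 difference was −0.44 (SE 0.21). Myoz3, on chromosome 18 from 60573750 to 60591788 (minus strand), was at 97.4, 83.3 and 115 FPKM among MyoCre libraries. In the knockout libraries it was at 76.8, 74.8 and 118 FPKM. Its groups overlapped, with K15SKO 3 above the MyoCre range and the other K15SKO libraries below it, and the log2 difference was −0.15 (SE 0.22).

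For each FPKM of Myoz2 there were 48.0, 55.0 and 116 FPKM of Myoz1 in MyoCre 1 to 3. The knockout libraries held 7.21, 14.6 and 18.5. The lowest log2 ratio of Myoz2 to Myoz1 in K15SKO exceeded the highest in MyoCre by 1.38. The mean log2 ratio was −3.64 ± 0.71 in K15SKO and −6.08 ± 0.69 in MyoCre (SD, n = 3 each), a difference of 2.43. Of the summed FPKM of the 3 myozenins, Myoz2 made up 1.49% ± 0.601 in MyoCre and 7.52% ± 3.57 in K15SKO (SD, n = 3 each). The share of Myoz3 was 4.41% ± 0.499 in MyoCre and 4.97% ± 0.118 in K15SKO, whereas that of Myoz1 was 94.1% ± 0.492 and 87.5% ± 3.52. The gain in the Myoz2 share thus stood opposite the Myoz1 share. The summed myozenin level was 2153 to 2382 FPKM in MyoCre and 1557, 1534 and 2318 FPKM in K15SKO 1 to 3. Both balances shifted most in K15SKO 1, then K15SKO 2, then K15SKO 3, by 3.15, 2.16 and 1.32 for the actinins and by 3.23, 2.21 and 1.87 for the myozenins. The Klf15 level did not fall in that order, being highest in K15SKO 2, the library with the high hepatocyte sum.

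Myot, on chromosome 18 from 44334074 to 44355724 (plus strand), read 617, 523 and 567 FPKM across MyoCre, by number. K15SKO libraries read 712, 669 and 856 FPKM. The groups did not overlap, and unlike Actn2 and Myoz2 it was highest in K15SKO 3. The log2 difference was 0.38 (SE 0.15). Tcap, on chromosome 11 from 98383811 to 98384953 (plus strand), read 3236, 2867 and 3051 FPKM across MyoCre, by library number, while K15SKO read 3282, 2389 and 4633 FPKM. K15SKO 2 was below the MyoCre range and the other K15SKO libraries above it. The log2 difference of 0.12 (SE 0.25) turned to −0.12 without K15SKO 3.

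Pdlim3, on chromosome 8 from 45885461 to 45919548 (plus strand), measured 451, 377 and 478 FPKM in MyoCre libraries. Among K15SKO libraries it read 1279, 1188 and 410.1 FPKM. K15SKO 1 and K15SKO 2 were at 2.94 and 2.73 times the MyoCre mean, and K15SKO 3 was inside the MyoCre range. The log2 difference was 0.98 (SE 0.44) over all libraries and 1.51 without K15SKO 3. The K15SKO libraries high in Pdlim3 were also those with high macrophage and regenerating-muscle sums. Ldb3, on chromosome 14 from 34526603 to 34588682 (minus strand), read 988, 841 and 962 FPKM across MyoCre, by library number, while K15SKO read 735, 806 and 1012 FPKM. Its groups overlapped, the log2 difference was −0.14 (SE 0.16), and the value sums 7 annotated protein-coding transcripts that cannot be told apart here.

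**Figure D3:**
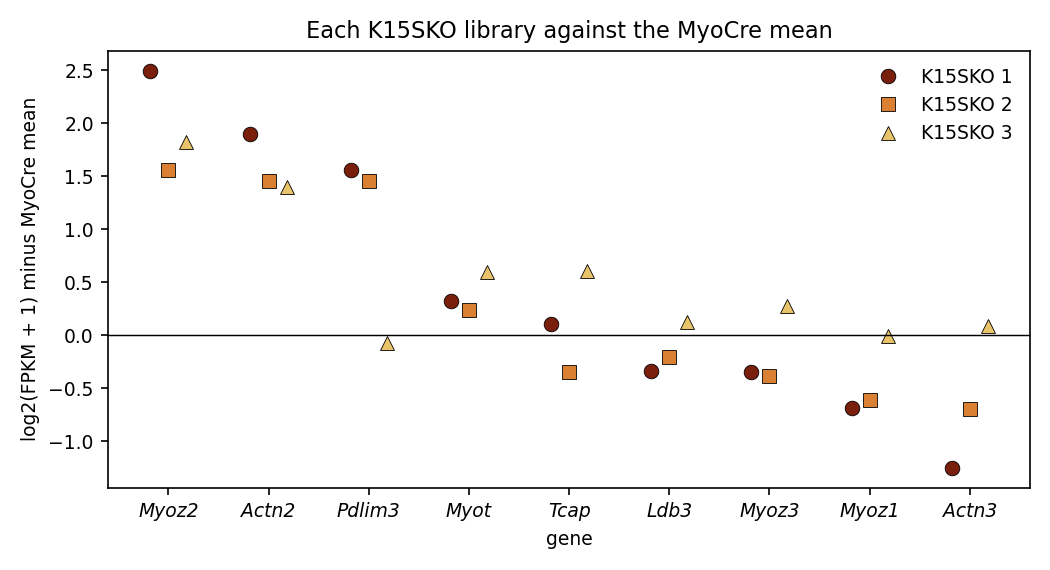
Log2(FPKM + 1) of each K15SKO library minus the MyoCre mean for the 9 genes, ordered by K15SKO 1; the line at 0 is the MyoCre mean. Myoz2 and Actn2 lie above 1.4 in all 3 libraries, and K15SKO 3 leaves the other libraries for Pdlim3, Myoz1 and Actn3.

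The 9 genes followed a few shapes across the libraries, measured as the root mean square difference between log2(FPKM + 1) profiles centred on each gene's mean. Among pairs of the 9, Ldb3 and Myoz3 were closest at 0.13, and Actn3 and Myoz1 were at 0.23. Actn2 and Myoz2 were at 0.43, whereas Actn3 and Myoz2 were farthest apart at 1.49. These distances describe 6 libraries of 2 groups. Among 10237 other named genes, Mybpc2, the fast-fibre myosin-binding protein, was nearest to Actn3 at 0.045, against a median of 0.51. Kitl and Pink1 followed. The genes nearest to Actn2 were Smtnl1 at 0.14, then Adprhl1 and Ankrd2, a stretch-responsive ankyrin protein (median of all 0.86). Myoz2 had no close match: Myh2, Smtnl1 and Casq2 were nearest, at 0.40 to 0.43 (median 1.11). Kat6a, Ak1 and Ubn1 were nearest to Myoz1, at 0.023 to 0.030 (median 0.32).

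Fibre type genes were read in the same libraries. Myh7, the slow myosin heavy chain, read 7.88, 13.4 and 0.363 FPKM across MyoCre 1 to 3, while K15SKO 1 to 3 read 28.6, 3.83 and 60.8 FPKM. K15SKO 2 therefore held Myh7 at 0.531 times the MyoCre mean while Actn2 stood at 2.72 times and Myoz2 at 2.86 times. Tnnt1 and Tnnc1, slow troponins, were at 18.5 and 13.4 FPKM in K15SKO 2, inside the MyoCre ranges of 1.26 to 21.3 and 1.55 to 31.3 FPKM. Not all slow-fibre genes did so: of the list of 11, 3 were above the MyoCre range in K15SKO 2 (Tnni1, Casq2 and Myl6b, named after their values were seen), 7 were inside it and 1 was below. All 11 were above it in K15SKO 1, and in K15SKO 3, 10 were above it and 1 was below. Of the 9 fast-fibre genes with a row, 7 were below the MyoCre range and 2 above it in both K15SKO 1 and K15SKO 2. In K15SKO 3, 6 of these 9 were above it, 1 was inside it and 2 were below. Tnni1, the slow troponin I, was at 19.2 FPKM in K15SKO 2 against a highest MyoCre value of 11.2 FPKM, and Casq2, the slow calsequestrin, was at 24.5 against 5.62 FPKM. Myh2, the type IIa myosin, read 553, 212 and 404 FPKM across K15SKO 1 to 3, while MyoCre ranged from 72.9 to 111 FPKM, so its groups did not overlap. Further fast-fibre genes, named after their values were seen, held exact zeros across a whole group. Myh1, the type IIx myosin, was listed at 0 in every K15SKO library and at 350.4 to 505 FPKM in MyoCre. Pvalb, the calcium buffer parvalbumin, was listed at 0 in every MyoCre library and at 5041 to 15958 FPKM in K15SKO. A listed 0 without counts can be a failed estimate, so no fold is given. Within MyoCre, library 3 was lowest in Myoz2, Myh7, Tnnt1 and Tnnc1 but not in Actn2. The heart list of 8 summed to 119, 54.3 and 16.3 FPKM by K15SKO library, while MyoCre sums ran from 7.33 to 9.77 FPKM. Of this list, Nppa, Nppb, Tnni3 and Myl7 were under 1 FPKM in every library (highest 0.567). Sln, Myl4 and Tnnt2 were higher in every K15SKO library than in any MyoCre library. Sln read 62.04, 14.6 and 5.63 FPKM in K15SKO 1 to 3 against at most 3.42 FPKM in MyoCre. Myl4 read 35.99, 22.4 and 5.78 FPKM against at most 5.44 FPKM, and Tnnt2 read 18.2, 15.8 and 1.07 FPKM against at most 0.733 FPKM. Myh6 was above the MyoCre range in K15SKO 1 and K15SKO 3 and below it in K15SKO 2.

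Other genes of the Z disc were taken as a list of 33, of which 31 passed the filter and Nebl and Fbxl22 were below it. The list was chosen with earlier results of these data known, so its counts are a description and no independent support. With limma, 0 of 31 passed an adjusted p of 0.05 in either direction, where 0.0517% of all genes did. At an unadjusted p under 0.05, 11 were higher and 1 lower, where 8.43% and 8.12% of all genes were. The groups did not overlap for 11 higher genes and 1 lower gene, where 13.4% and 11.3% of all genes did not, and the median log2 difference was 0.27. The genes with the smallest p were higher in 3 of 3 K15SKO libraries. Synpo2l, an actin-bundling Z-disc protein, read 98.7, 99.6 and 76.9 FPKM across K15SKO, while MyoCre read 53.9, 48.9 and 43.7 FPKM (log2 difference 0.89, SE 0.15, limma adjusted p = 0.228, and 0.00894 to 0.581 over 14 alternatives). Lmod2 and Lmod3, leiomodins that elongate thin filaments, averaged 175 ± 57.1 and 81.1 ± 16.6 FPKM in K15SKO, while their MyoCre means were 63.3 ± 7.49 and 45.8 ± 4.17 FPKM (SD, n = 3 per group; limma adjusted p = 0.248 for both). Flnc, the filamin that binds myotilin and myozenins, read 288, 182 and 183 FPKM across K15SKO, above a MyoCre range of 89.2 to 128 FPKM (limma adjusted p = 0.269).

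The largest differences in this list were in Cryab and Fhl1. Cryab, a small heat shock protein that protects desmin and titin, read 5368, 4517 and 942 FPKM by K15SKO library, above a MyoCre range of 467 to 630 FPKM (log2 difference 2.35, SE 0.65, limma adjusted p = 0.272). Fhl1, a LIM protein of muscle, read 2938, 1827 and 564 FPKM, above a MyoCre range of 257 to 369 FPKM (2.30, SE 0.58, limma adjusted p = 0.269). K15SKO 3 was above MyoCre for both genes but far below its own group. The non-muscle alpha-actinin Actn1 was low throughout, at 2.30 ± 0.105 FPKM in K15SKO and 1.59 ± 0.191 FPKM in MyoCre (SD, n = 3 per group; limma adjusted p = 0.280). Actn4, the other non-muscle form, was at 8.13 ± 1.71 and 8.94 ± 0.433 FPKM (limma adjusted p = 0.590). The 5 markers of smooth muscle, which uses these forms, summed to 67.8 to 79.1 FPKM in K15SKO. Their MyoCre sums were 48.6 to 53.8 FPKM. Smtn and Acta2 were higher in every K15SKO library than in any MyoCre library. Myh11 and Tagln were below the MyoCre range in K15SKO 1 and K15SKO 2 and above it in K15SKO 3. Cnn1 was under 1 FPKM in every library. The part of these markers was not tested. Without K15SKO 3, limma called 10 of the 31 genes higher and 2 lower, where 23.6% of all genes were called. Cryab, Fhl1, Synpo2l, Lmod2, Lmod3 and Flnc were among the 10, with adjusted p of 0.00176, 0.00663, 0.00894, 0.0360, 0.0236 and 0.0418.

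**Figure D4:**
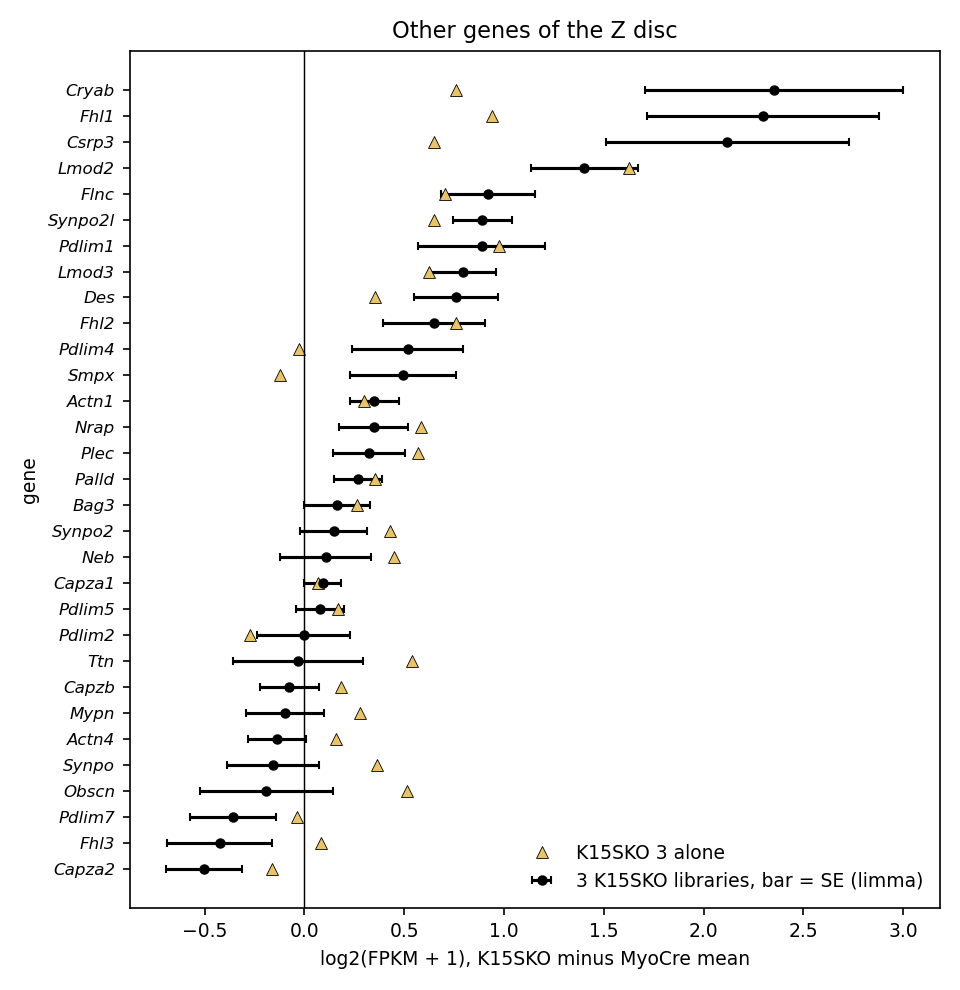
Log2(FPKM + 1) difference between the K15SKO and MyoCre means for 31 other Z-disc genes, with the limma SE as bars (circles), and K15SKO 3 alone against the MyoCre mean (triangles). Cryab at 2.35 and Fhl1 at 2.30 differ most over the group, and K15SKO 3 lies lower for both.

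Calcineurin, which myozenins bind, and its downstream factors were taken as a list of 13, of which 12 passed the filter. This list too was chosen with earlier results of these data known. With limma, 0 of 12 passed an adjusted p of 0.05, and at an unadjusted p under 0.05, 1 was higher and 4 were lower, where 8.43% and 8.12% of all genes were. The groups did not overlap for 0 higher and 4 lower genes, where 13.4% and 11.3% of all genes did not, and the median log2 difference was −0.36. Nfatc3, a calcineurin-dependent transcription factor, read 5.77, 6.62 and 7.91 FPKM by K15SKO library, below a MyoCre range of 8.79 to 9.78 FPKM (limma adjusted p = 0.272). Mef2c, a transcription factor of muscle genes, averaged 141 ± 13.4 FPKM in K15SKO while MyoCre averaged 181 ± 11.0 FPKM (SD, n = 3 per group; limma adjusted p = 0.279). Its relative Mef2a averaged 31.8 ± 6.50 FPKM while MyoCre averaged 44.8 ± 4.50 FPKM (SD, n = 3 per group; limma adjusted p = 0.279). All 3 were lower in 3 of 3 K15SKO libraries. Without K15SKO 3, limma called 1 gene of the list higher and 6 lower, where 23.6% of all genes were called. Nfatc3, Mef2a and Mef2c were among the 6, with adjusted p of 0.0226, 0.0241 and 0.0266.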

How the data were processed

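The authors deposited a matrix of FPKM for 23314 genes in 6 libraries; the unit is not named there and was taken from the tools and the range of values. The mm10 build, Cufflinks, Cuffdiff and STAR are named per the submitters' processing notes, without versions, and strandedness is not stated in the labels. Columns were matched to samples by the descriptions in the labels. Coordinates came from GENCODE M21 on GRCm38 (mm10).

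FPKM keep no counts, so no counting interval is given, and relative depth came from the most common ratio of values under 0.1 FPKM. Genes with a mean of at least 1 FPKM (11607) were transformed to log2(FPKM + 1) and fitted by limma (3.58.1; R 4.3.3) (intensity trend, two-sided, Benjamini-Hochberg, threshold 0.05), a scale that understates the change of low genes. The fit was tested on simulated data in which both groups had the spread of the MyoCre libraries. That test therefore does not cover the wider K15SKO spread seen for genes such as Actn3.

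The genes and lists were chosen with earlier results of these data known. Named beside the 9 genes were Klf15, Actn1, Actn4, Myh7, Myh2, Tnnt1 and Tnnc1, up to 6 Z-disc and 3 calcineurin genes by smallest p, and 3 nearest profiles for each of Actn2, Actn3, Myoz1 and Myoz2. Nearest profiles left out predicted genes, pseudogenes and small RNAs by name (AC, BC, Gm, Mir, Rik, Snor, -ps). Alternatives were quantile or median-of-ratios scaling, no low-value filter or 1 at 5 FPKM, pseudocounts of 0.5 or 0.1, no trend, a replicate block, and each library left out. Of the marker lists, adipocyte genes summed to 29.4 to 53.2 FPKM in K15SKO and 171 to 479 FPKM in MyoCre. The fast-fibre list (9 tested, 3 without a row under their symbols) and the slow-fibre list (11 tested) had median log2 differences of −0.41 and 1.68. Plots used matplotlib 3.10.9.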

Additional observations from a re-analysis of the deposited data

How the results depend on the processing

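The number of genes past the threshold in all was 6, and it was 3 with no filter on low values and 3 with the replicate number as a block. Leaving out 1 library at a time gave 3 to 2743 genes, with 2743 without K15SKO 3 and 3 without MyoCre 1 or MyoCre 2. The same omissions gave 0 to 12 other Z-disc genes and 0 to 7 calcineurin and MEF2 genes, above 0 only without K15SKO 3. Without K15SKO 3 the spread of K15SKO rests on 2 libraries; the cause was not tested. The log2 difference of Tcap ran from −0.12 (without K15SKO 3, the single reversal) to 0.36 over the libraries left out. The Actn2 to Actn3 balance difference ran from 1.74 to 2.66, and that of Myoz2 to Myoz1 from 2.04 to 2.72, over 9 alternatives each. These ranges describe its size and are no test of direction. Every K15SKO ratio lay above every MyoCre ratio, so leaving out 1 library or summing each group could not reverse it. The replicate block returns the main difference by its design. The labels do not say what same-numbered libraries share. Their deviations from the group mean correlated at 0.0024, 0.085 and 0.094, and MyoCre 1 correlated better with K15SKO 2 (0.0066). Deviations taken from the mean of so few libraries depend on one another, so these values cannot decide on a pairing. The replicate block left 0 calls in the Z-disc and the calcineurin lists. Scaling moved the median of all genes by less than 0.1, to −0.055 at most. FPKM without counts limit what can be said of genes near 1 FPKM such as Actn1.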

Other observations

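A further pair of fast and slow paralogs, chosen after its values were seen, was read in the same way. Mybpc1, the slow-type myosin-binding protein of the thick filament, read 268, 204 and 337 FPKM across MyoCre 1 to 3, while K15SKO 1 to 3 read 592, 393 and 552 FPKM. The groups did not overlap. Mybpc2, the fast-type form, read 1639, 1497 and 2027 FPKM across MyoCre, while K15SKO 1 to 3 read 681, 987 and 1693 FPKM, where K15SKO 3 was inside the MyoCre range. The mean log2 ratio of Mybpc1 to Mybpc2 was −2.69 ± 0.16 in MyoCre and −1.05 ± 0.75 in K15SKO (SD, n = 3 each), a difference of 1.64. Mybpc2 had the profile nearest to that of Actn3, at a distance of 0.045, so this ratio is not independent of the Actn2 to Actn3 balance.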
